A study of Mus musculus with 4 samples.

Results

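The 40 genes described here encode the enzymes and carriers that bring pyruvate into mitochondria, turn the tricarboxylic acid (TCA) cycle and pass the energy on through the creatine shuttle. They were chosen by name from a table of 52125 gene rows, and all 40 have a row. Total RNA of the gastric corpus, the region that secretes acid, was sequenced in 4 wild-type C57BL/6 mice aged 6 to 8 weeks. The HDT group held 2 mice, each given a single intraperitoneal injection of 5 mg per 20 g of body weight to damage the tissue, and the Vehicle group held 2 control mice. Each library came from 1 mouse, and both groups carry the 48 hr label. HDT commonly stands for high-dose tamoxifen in gastric injury work, although the labels do not spell it out. The titles name the controls vehicle, whereas the protocols call such mice untreated, so it is not known whether they were injected.

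As background, pyruvate from glycolysis crosses the inner mitochondrial membrane through a carrier and is oxidised to acetyl-CoA by the pyruvate dehydrogenase complex. Kinases switch that complex off and phosphatases switch it on again. The TCA cycle oxidises acetyl-CoA and feeds electrons to the respiratory chain, ADP/ATP carriers exchange the product with the cytosol, and creatine kinases buffer it. Acid secretion is costly, and parietal cells, which secrete the acid, are packed with mitochondria.

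At 48 hr after HDT, 28 of the 39 tested genes were lower than in Vehicle, 3 were higher and 8 had no call, where a call is a limma adjusted p (Benjamini-Hochberg, over all 18285 tested genes) under 0.05. The brain-type creatine kinase gene Ckb, the ADP/ATP carrier gene Slc25a4, both pyruvate carrier genes (Mpc1, Mpc2) and the mitochondrial isocitrate dehydrogenase gene Idh2 each fell by more than 2-fold. The cytosolic isocitrate dehydrogenase gene Idh1, the cytosolic aconitase gene Aco1 and the pyruvate dehydrogenase kinase gene Pdk3 rose. Lower calls made up 71.8% of the tested members, against 19.3% of all tested genes, and higher calls 7.69%, against 18.4%, with 37.7% of all tested genes called in either direction. Falls of at least 2-fold numbered 5, or 12.8% of the tested members, against 4.5% of all tested genes. The member without a test was the sarcomeric mitochondrial creatine kinase gene Ckmt2, which had no read in any of the 4 libraries. Counted without a test, the HDT mice lay wholly below the Vehicle mice for 33 tested members (84.6%, against 35.5% of all tested genes) and wholly above them for 4 (10.3%, against 35.3%). The median log2 fold change of the tested members was -0.47, and that of all tested genes was 0.00 after rounding (-0.0015).

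How the libraries are scaled against each other decides the direction of the modest changes. Levels are given as CPM, the usual depth-scaled read count, with each library size corrected by the trimmed mean of M-values (TMM), a scaling that centres the bulk of the genes on no change. In the values as deposited, the 4 libraries instead have nearly equal totals, and the median of all tested genes is 0.53 on the log2 scale. On that scale limma called 13 members higher and 8 lower (median 0.059), against 62.8% higher and 5.46% lower of all tested genes. The 13 were Pdha1, Dlat, Pdk1, Pdk3, Pdp2, Cs, Ogdh, Dlst, Aco1, Idh1, Me1, Me2 and Ckmt1. The members took 0.714% and 0.710% of all reads in the HDT libraries, against 0.660% and 0.647% in the Vehicle libraries. Their summed TMM-scaled level was 5853 and 6002 CPM in HDT, against 7791 and 7903 CPM in Vehicle. The members thus took a larger share of the reads in HDT and a smaller one relative to the bulk of genes.

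A total of 11 members were called in the same direction under each of the 5 scalings tried (TMM, TMM after setting aside the 20 most abundant genes, DESeq2 size factors, upper quartile and none). The 8 lower ones were Mpc1, Mpc2, Idh2, Mdh1, Got1, Sucla2, Ckb and Slc25a4, or 20.5% of the tested members, against 5.46% of all tested genes. The 3 higher ones were Idh1, Aco1 and Pdk3, or 7.69%, against 18.3% of all tested genes. The remaining lower calls were not made at the deposited scaling. All fold changes below use TMM and log2(value + 1), which understates changes of genes with few reads, and are HDT over Vehicle.

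**Figure D1:**
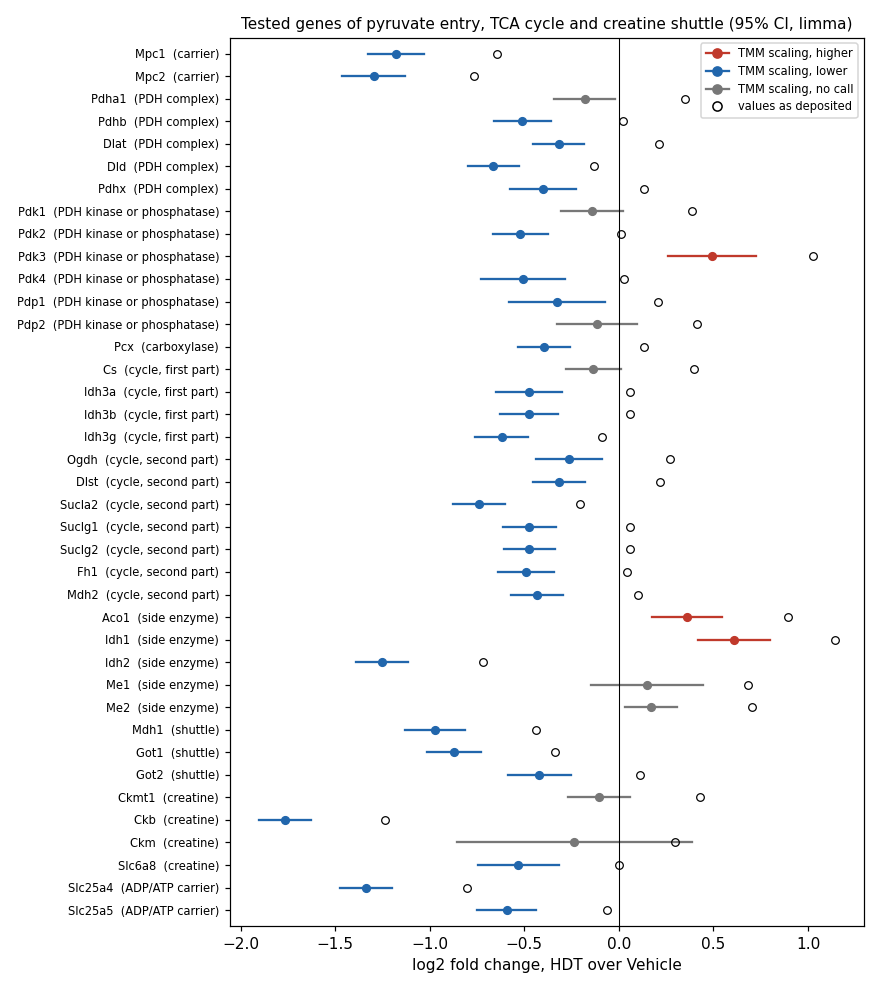
Log2 fold change (HDT over Vehicle, 2 mice each) of the 39 tested members in the order of their roles. Filled points and bars give the limma estimate and 95% confidence interval with TMM scaling, and open circles the same estimate from the values as deposited. Ckb lies furthest to the left at -1.77 and Idh1 furthest to the right at 0.61.

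Both subunit genes of the mitochondrial pyruvate carrier were lower. Mpc1 stood at 24.7 and 25.3 CPM in the HDT mice, against 57.6 and 55.8 CPM in the Vehicle mice. Mpc2 stood at 33.4 and 29.9 CPM in HDT, against 78.5 and 76.8 CPM in Vehicle. The mice of a group lay close together and the groups did not overlap. The log2 fold change was -1.18 for Mpc1 (SE 0.064, limma adjusted p = 1.06e-05) and -1.30 for Mpc2 (SE 0.072, limma adjusted p = 1.2e-05). At the deposited scaling they were -0.65 and -0.76, still called. Mpc1 lies on chromosome 17 (8282904 to 8297661, GRCm38), and 23.1% of its exon bases overlap 4930506C21Rik on the opposite strand. That gene was at 18.8 and 19.1 CPM in HDT and 44.96 and 42.4 CPM in Vehicle, and since the strand setting of the counting is not given in the sources used here, reads of the pair cannot be told apart. Mpc2 lies on chromosome 1 (165460637 to 165481214) and shares no exon base with another annotated gene.

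Within the pyruvate dehydrogenase complex, 4 of 5 subunit genes were lower, against 19.3% of all tested genes, and Pdha1 had no call. Dld, the dihydrolipoamide dehydrogenase that this complex shares with the alpha-ketoglutarate dehydrogenase complex, was the most changed. It stood at 96.2 and 96.9 CPM in HDT, against 155.6 and 150.7 CPM in Vehicle, a log2 fold change of -0.67 (SE 0.059, limma adjusted p = 0.000102). The groups did not overlap, but at the deposited scaling Dld was at -0.13 and not called (limma adjusted p = 0.0954). Pdhb, the beta subunit of the decarboxylating component, fell by 0.51 on the log2 scale, the binding protein gene Pdhx by 0.40 and the acetyltransferase gene Dlat by 0.32. Dlat was called higher at the deposited scaling, at 0.21, where Pdhb and Pdhx had no call. Pdha1, the alpha subunit that the kinases phosphorylate, averaged 243.9 ± 14.4 CPM in HDT and 276.5 ± 11.2 CPM in Vehicle (SD, n = 2 each). Its log2 fold change of -0.18 had a 95% confidence interval of -0.34 to -0.02 before adjustment (limma adjusted p = 0.0733), and without HDT replicate 1 it was called lower (-0.24, limma adjusted p = 0.0252). Of the exon bases of Pdha1, 16.1% overlap Map3k15 on the opposite strand.

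The kinases that inactivate the complex did not move together. Pdk3 stood at 28.3 and 24.4 CPM in HDT, against 17.5 and 19.95 CPM in Vehicle, and all HDT values lay above all Vehicle values. The log2 fold change was 0.49 (SE 0.101, limma adjusted p = 0.00648), and 1.02 at the deposited scaling. Pdk2, the most abundant kinase of the family per length in both groups, stood at 58.9 and 56.3 CPM in HDT, against 81.0 and 84.2 CPM in Vehicle. Its log2 fold change was -0.52 (SE 0.062, limma adjusted p = 0.000457), with 0.012 and no call at the deposited scaling. Pdk4, a kinase induced by fasting, fell by 0.51, while Pdk1, a hypoxia-inducible kinase, had no call (39.9 and 37.7 CPM in HDT, 41.2 and 44.5 CPM in Vehicle). Of the phosphatase genes, Pdp2 had no call, at -0.12 with a 95% confidence interval of -0.33 to 0.09, and Pdp1 passed narrowly at -0.33 (limma adjusted p = 0.0486). The Pdp1 call was lost with edgeR (adjusted p = 0.0523), DESeq2 (adjusted p = 0.1035), upper-quartile scaling (limma adjusted p = 0.0654) and the replicate block (limma adjusted p = 0.0723). It was also lost without HDT replicate 1 (limma adjusted p = 0.228) and without Vehicle replicate 2 (limma adjusted p = 0.183). Pyruvate carboxylase, which makes oxaloacetate from pyruvate, is encoded by Pcx, at 144.7 and 149.2 CPM in HDT against 196.4 and 190.8 CPM in Vehicle. It fell by 0.40 on the log2 scale and was at 0.13 with no call at the deposited scaling.

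**Figure D2:**
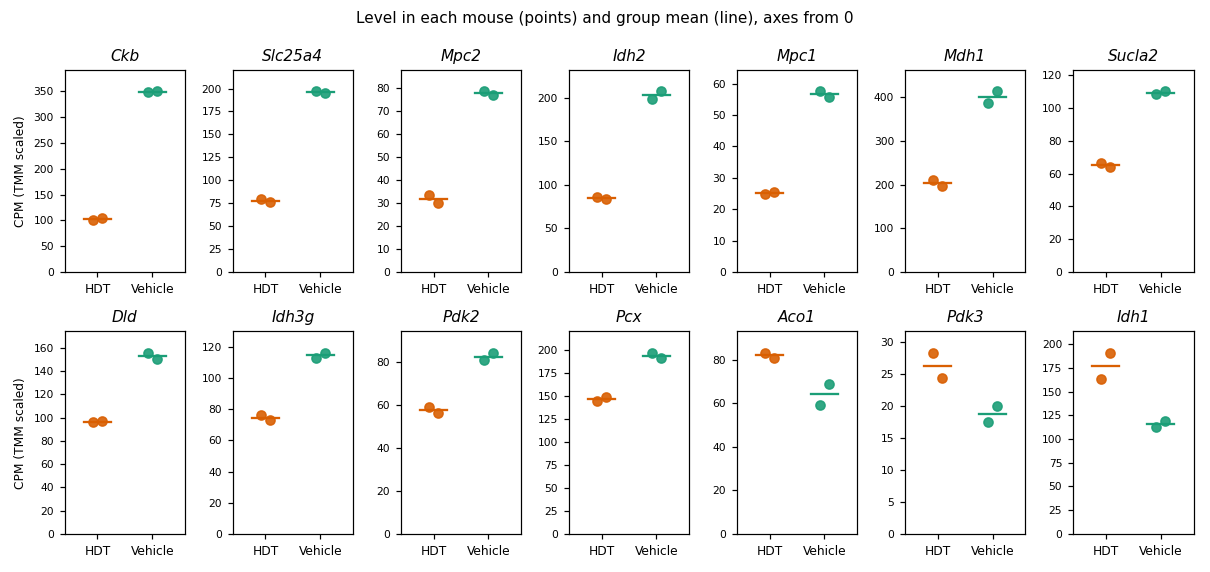
Level in CPM (TMM scaled, each axis from 0) of 14 members in each mouse, HDT left and Vehicle right, with points for mice and lines for group means. The members are those with called changes of at least 2-fold, those called higher and the most changed called member of each role. In none of the 14 do the groups overlap, but they were picked by their calls. Of all tested genes, the HDT mice lay wholly below the Vehicle mice for 35.5% and wholly above them for 35.3%.

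Of the 11 members that are enzymes of the cycle, 10 were lower with TMM, where 19.3% of all tested genes were lower. Citrate synthase (Cs), the entry enzyme, had no call. Cs averaged 523 ± 1.08 CPM in HDT and 575 ± 13.1 CPM in Vehicle (SD, n = 2 each), a log2 fold change of -0.14 with a 95% confidence interval of -0.28 to 0.01 (limma adjusted p = 0.131). At the deposited scaling Cs was called higher, at 0.40. The most changed of these 11 was Sucla2, the beta subunit of the ATP-forming succinyl-CoA ligase, at 66.7 and 64.0 CPM in HDT against 108.2 and 110.1 CPM in Vehicle. It fell by 0.74 (SE 0.06, limma adjusted p = 6.93e-05). Among the 11 it alone was called lower at the deposited scaling as well, at -0.21. Suclg2, the beta subunit of the GTP-forming ligase, and Suclg1, the alpha subunit that both ligases share, each fell by 0.47.

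All 3 subunits of the NAD-linked isocitrate dehydrogenase fell. Idh3g stood at 76.1 and 73.0 CPM in HDT, against 113.0 and 116.0 CPM in Vehicle, and fell by 0.62 (SE 0.06, limma adjusted p = 0.000164). The catalytic subunit gene Idh3a and the regulatory subunit gene Idh3b both had a log2 fold change of -0.48, and none of the 3 was called at the deposited scaling. Fumarase (Fh1) fell by 0.49 and mitochondrial malate dehydrogenase (Mdh2) by 0.43. The smallest called falls in the cycle were those of Dlst (-0.32) and Ogdh (-0.26), the core subunits of the alpha-ketoglutarate dehydrogenase complex. The Ogdh call was lost when HDT replicate 1 was left out (limma adjusted p = 0.0517), and likewise for Vehicle replicate 1 (0.115) and for Vehicle replicate 2 (0.261). With the replicate number as a block it was lost too (limma adjusted p = 0.0754). The Dlst call was lost when Vehicle replicate 2 was left out (limma adjusted p = 0.0554). At the deposited scaling Ogdh and Dlst were called higher, at 0.27 and 0.21.

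Among the side enzymes, the isocitrate dehydrogenases that make NADPH moved in opposite directions. Idh2, the mitochondrial form, stood at 85.7 and 84.1 CPM in HDT, against 198.1 and 207.1 CPM in Vehicle. Idh1, the cytosolic and peroxisomal form, stood at 163.5 and 190.5 CPM in HDT, against 112.4 and 119.2 CPM in Vehicle. In Vehicle both mice had more Idh2 than Idh1 reads per length, and in HDT both had more Idh1 than Idh2. The log2 fold change was -1.25 for Idh2 (SE 0.06, limma adjusted p = 6.21e-06) and 0.61 for Idh1 (SE 0.083, limma adjusted p = 0.000878), and at the deposited scaling -0.72 and 1.14. Idh2 lies on chromosome 7 (80094846 to 80115392) and Idh1 on chromosome 1 (65158616 to 65186500).

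Aco1, the cytosolic aconitase that also serves as an iron regulatory protein, stood at 83.1 and 81.0 CPM in HDT, against 59.3 and 68.96 CPM in Vehicle. It rose by 0.36 (SE 0.08, limma adjusted p = 0.00954). Without Vehicle replicate 1, the lower of the controls, the value was 0.25 and not called (limma adjusted p = 0.0808). Me2, the mitochondrial NAD-linked malic enzyme, averaged 185.3 ± 0.698 CPM in HDT and 164.6 ± 4.79 CPM in Vehicle (SD, n = 2 each) and missed the threshold at 0.17 (95% confidence interval 0.03 to 0.31, limma adjusted p = 0.0544). With DESeq2 size factors (limma adjusted p = 0.0476) and with upper-quartile scaling (limma adjusted p = 0.0234) it passed, and at the deposited scaling it was called higher at 0.70 (limma adjusted p = 7.35e-06). Me1, the cytosolic malic enzyme, was the most variable of the abundant members, at 447.6 and 525.5 CPM in HDT and 486.8 and 393.6 CPM in Vehicle. Its groups overlapped, and the log2 fold change of 0.15 had a 95% confidence interval of -0.15 to 0.44. Me1 was called higher at the deposited scaling, at 0.68 (limma adjusted p = 0.0053).

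Of the malate-aspartate shuttle, which carries reducing power into mitochondria, Mdh1, Got1 and Got2 were all lower, and the cytosolic enzymes Mdh1 and Got1 had the larger fold changes. Mdh1, the cytosolic malate dehydrogenase, stood at 210.5 and 196.5 CPM in HDT, against 385.7 and 413.4 CPM in Vehicle. Its log2 fold change was -0.97 (SE 0.069, limma adjusted p = 3.5e-05), and -0.44 at the deposited scaling. Got1, the cytosolic aspartate aminotransferase, averaged 58.2 ± 1.90 CPM in HDT and 106.5 ± 2.69 CPM in Vehicle (SD, n = 2 each), a log2 fold change of -0.87 that was -0.34 and still called at the deposited scaling. Got2, the mitochondrial form, fell by 0.42 and at the deposited scaling was at 0.11 with no call. Of the exon bases of Got2, 9% overlap Gm45760 on the opposite strand.

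Of the creatine kinase genes, Ckb fell, Ckmt1 and Ckm had no call and Ckmt2 had no read. Ckb, the brain-type cytosolic kinase, had the largest fall of all members, with 100.7 and 104.7 CPM in HDT against 348.7 and 350.1 CPM in Vehicle. The log2 fold change was -1.77 (SE 0.059, limma adjusted p = 1.34e-06), and -1.23 at the deposited scaling. Ckmt1, the ubiquitous mitochondrial kinase, stood at 478 and 527 CPM in HDT and 539.2 and 539.6 CPM in Vehicle. It had no call at -0.10 (95% confidence interval -0.27 to 0.06, limma adjusted p = 0.291), and at the deposited scaling it was called higher at 0.43. Ckm, the muscle-type kinase, was low, at 4.62 ± 1.03 CPM in HDT and 5.51 ± 1.76 CPM in Vehicle (SD, n = 2 each), and the groups overlapped. Of the exon bases of Ckm, 15.5% overlap A930016O22Rik on the opposite strand. Slc6a8, which imports creatine into cells, fell by 0.53 (limma adjusted p = 0.00307), and the deposited scaling gave 0.00 (0.00014 unrounded). Ckb lies on chromosome 12 (111669361 to 111672338).

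Both ADP/ATP carrier genes were lower, to different extents. Slc25a4, the form that prevails in heart and skeletal muscle, stood at 79.35 and 76.0 CPM in HDT, against 196.9 and 195.2 CPM in Vehicle. Its log2 fold change was -1.34 (SE 0.06, limma adjusted p = 4.64e-06), and -0.80 at the deposited scaling. Slc25a5, the form of proliferating cells and the most abundant member per length in both groups, averaged 664 ± 18.1 CPM in HDT and 1002 ± 24.4 CPM in Vehicle (SD, n = 2 each). It fell by 0.59 (limma adjusted p = 0.000359), and at the deposited scaling it was at -0.06 with no call. Slc25a4 lies on chromosome 8 (46206797 to 46211284) and Slc25a5 on the X chromosome.

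Shares of related genes within a library do not depend on the scaling between libraries. They were computed from reads per kilobase of annotated exon, and carry no test, since 2 mice against 2 cannot go below p = 0.333 in an exact permutation test. Of the summed Idh1, Idh2 and Idh3a signal, Idh1 held 52.9% and 58.1% in HDT, against 28.6% and 28.9% in Vehicle. Idh2 held 29.7% and 27.5% in HDT, against 53.9% and 53.85% in Vehicle. The share of Idh3a was 15.9 ± 2.09% in HDT and 17.4 ± 0.198% in Vehicle (SD, n = 2 each). Idh1 and Idh2 thus exchanged places as the leading form in both HDT mice. Ckb held 15.3% and 14.5% of the creatine kinase signal in HDT, against 35.6% and 35.7% in Vehicle, and Ckmt1 made up nearly all of the rest. Slc25a4 held 7.85% and 7.28% of the carrier signal in HDT, against 12.3% and 11.8% in Vehicle. Among the 4 kinase genes of the Pdk family, the share of Pdk3 was 26.6% and 24.3% in HDT, against 14.6% and 15.3% in Vehicle.

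Shares were also computed for pairs of related enzymes. Mdh1 held 52.4% and 51.5% of the Mdh1 and Mdh2 signal in HDT, against 60.1% and 62.2% in Vehicle. Got1 held 51.0% and 52.3% of the Got1 and Got2 signal in HDT, against 59.65% and 59.0% in Vehicle. Sucla2 held 44.1% and 42.8% of the signal of the 2 ligase beta subunits in HDT, against 48.15% and 47.9% in Vehicle. In these 3 pairs the HDT mice lay apart from the Vehicle mice. For the malic enzymes no such separation was seen, since Me1 held 81.95% and 84.3% of the Me1 and Me2 signal in HDT and 85.1% and 81.5% in Vehicle.

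**Figure D3:**
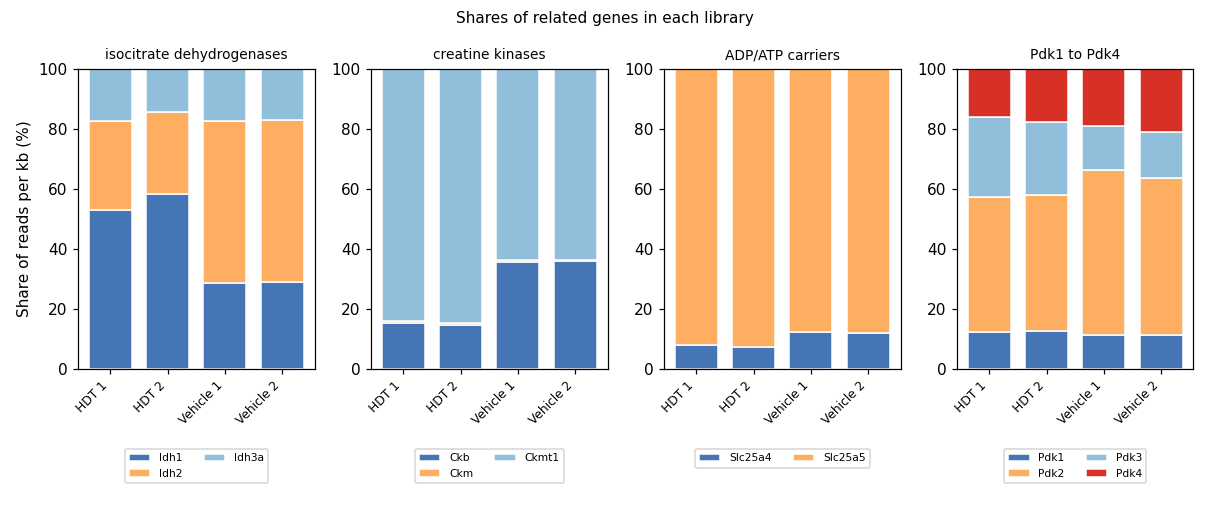
Share of each gene, in percent of the summed reads per kilobase of exon of its set, in each of the 4 libraries (HDT left, Vehicle right). Ckmt2 is not drawn because it had no read. Idh1 stands at 52.9% and 58.1% in HDT, against 28.6% and 28.9% in Vehicle.

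Per kilobase of exon, the order of the members by level was led by Slc25a5 in both groups, at 403.5 CPM per kb in HDT and 609 CPM per kb in Vehicle, followed by Ckmt1 at 201.3 CPM per kb in HDT and 216.1 CPM per kb in Vehicle. Ckb was 11th of 39 in HDT and 5th in Vehicle, and Mdh1 was 6th in HDT and 3rd in Vehicle. Idh1 was 9th in HDT and 15th in Vehicle. In HDT its mice overlapped with those of Pdha1, the 8th. In Vehicle they overlapped with those of Idh3g, the 13th, Got1, the 14th, Dld, the 16th, Fh1, the 17th, and Pcx, the 18th. The Vehicle values of Ckb (120.5 and 120.9 CPM per kb) lay between those of Me1 (126.5 and 102.3 CPM per kb), the 6th there. The ranks 4 and 5 in HDT, Ogdh at 112.1 and 123.5 and Cs at 90.4 and 90.7 CPM per kb, did not overlap, whereas Me1 (116.3 and 136.6 CPM per kb), the third, overlapped with Ogdh. In Vehicle, Mdh1 at 150.3 and 161.1 CPM per kb lay just above Ogdh at 137.1 and 145.6 CPM per kb. At the low end stood the phosphatase genes Pdp1 and Pdp2 and Ckm, at 2.43, 1.95 and 1.59 CPM per kb in HDT and 3.04, 2.12 and 1.89 CPM per kb in Vehicle. The length is that of all annotated exons of a gene (7344 bases for Mpc2, for example), whether or not each exon is used in this tissue, and the place of a gene depends on it.

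A second list held 39 other genes of the same pathways. Of the 37 tested, 16 were lower, 5 were higher and 16 had no call, with a median log2 fold change of -0.21. Lower calls made up 43.2% of the 37, against 19.3% of all tested genes, and higher calls 13.5%, against 18.4%. At the deposited scaling 7 were lower (18.9%, against 5.46% of all tested genes) and 22 higher (59.5%, against 62.8%). The largest fall was that of Me3, the mitochondrial NADP-linked malic enzyme, with 3.56 and 2.32 CPM in HDT against 23.6 and 27.1 CPM in Vehicle, a log2 fold change of -3.13 (SE 0.206, limma adjusted p = 0.000101). Ldhb, the lactate dehydrogenase subunit of oxidative tissues, stood at 69.7 and 57.7 CPM in HDT, against 346.4 and 366.9 CPM in Vehicle, and fell by 2.49 (SE 0.093, limma adjusted p = 3.38e-06). Ldha, the subunit of glycolytic tissues, had no call, at 617 and 668 CPM in HDT and 720.4 and 699.8 CPM in Vehicle. Nnt, the mitochondrial transhydrogenase that makes NADPH, stood at 20.1 and 17.5 CPM in HDT, against 48.7 and 54.2 CPM in Vehicle, a log2 fold change of -1.45 (SE 0.091, limma adjusted p = 2.04e-05). The transcripts of the mitochondrial NADPH-making enzymes Idh2, Me3 and Nnt thus all fell and all remained called at the deposited scaling, at -0.72, -2.60 and -0.92. Together they were picked after their values were seen, and enzyme activity was not measured.

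Of the 4 subunit genes of succinate dehydrogenase, the enzyme that ties the cycle to the respiratory chain, 3 were lower, against 19.3% of all tested genes. Sdha fell by 0.83 on the log2 scale, Sdhb by 0.74 and Sdhc by 0.55, while Sdhd had no call at -0.15. Sdha and Sdhb were also called lower at the deposited scaling, at -0.30 and -0.21. The 5 genes called higher were both enzymes of creatine synthesis (Gatm at 0.71 and Gamt at 0.47), mitochondrial phosphoenolpyruvate carboxykinase (Pck2, 0.74), the cytosolic acetyl-CoA synthetase gene Acss2 (0.26) and the lipoyl transferase gene Lipt2 (1.02), and these and the succinate dehydrogenase genes were named after their values were seen. Gatm and Gamt were weakly expressed, at 6.46 ± 0.225 and 6.23 ± 0.319 CPM in HDT against 3.93 ± 0.183 and 4.51 ± 0.133 CPM in Vehicle (SD, n = 2 each). The count of 5 higher genes was 2 without HDT replicate 2, 3 without either Vehicle replicate and 3 with the replicate number as a block.

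**Figure D4:**
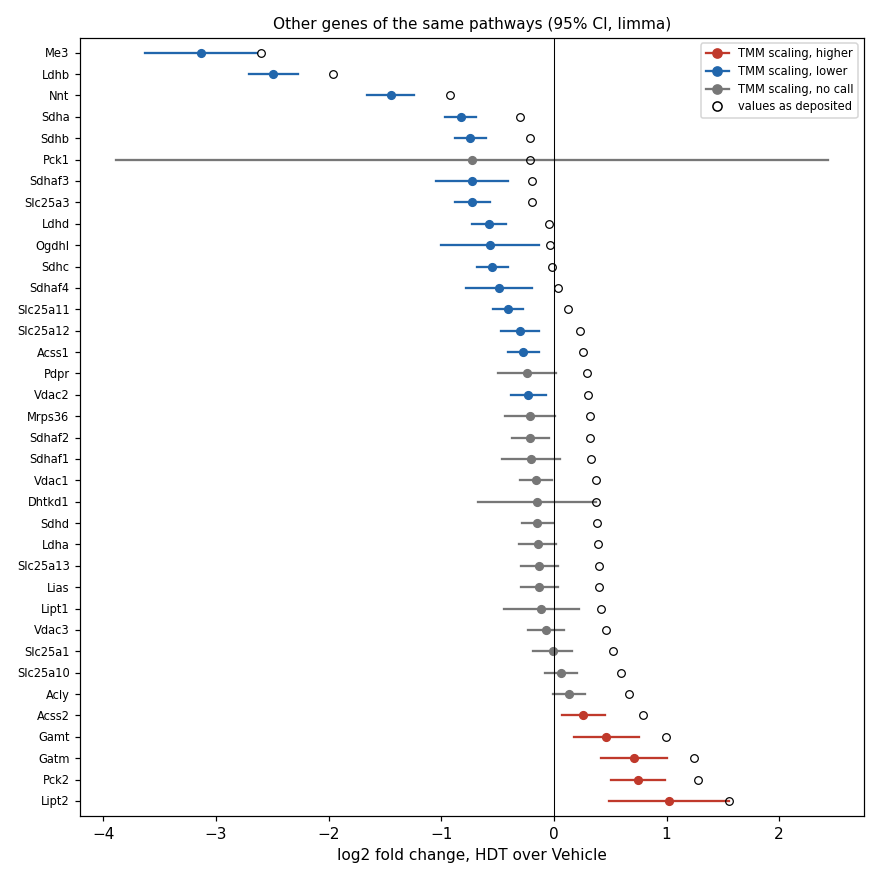
Log2 fold change (HDT over Vehicle, 2 mice each) of 36 of the 37 tested genes of the same pathways that are not among the 40, sorted by size. Filled points and bars give the limma estimate and 95% confidence interval with TMM scaling, and open circles the estimate from the values as deposited. Me3 (-3.13) and Ldhb (-2.49) lie furthest to the left.

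These are bulk samples, in which fewer cells of a type and less RNA per cell cannot be told apart. Markers of the corpus cell types were present in all 4 mice, apart from Lipf, listed at 0 reads. Of 14 parietal cell markers, 11 were lower and 0 higher with limma and with edgeR, while DESeq2 called 12 lower and 1 higher and limma at the deposited scaling 9 lower and 1 higher. Their summed level was 5196 and 5254 CPM in HDT, against 16220 and 17340 CPM in Vehicle. The proton pump subunit genes lead the list by mean level over all 4 mice, with Atp4a at 994 ± 162 CPM in HDT and 7216 ± 613 CPM in Vehicle and Atp4b at 529 ± 48.9 CPM in HDT and 4849 ± 177 CPM in Vehicle (SD, n = 2 each). Car2 led the list in HDT and did not fall, at 2519 and 3030 CPM in HDT against 2395 and 2269 CPM in Vehicle. It is part of the sums above. With TMM it had no call at 0.25 (limma adjusted p = 0.101), and at the deposited scaling it was called higher at 0.78. Of 6 tested chief cell markers, led by Pgc and Chia1, limma called 4 lower, with a sum of 45440 and 32110 CPM in HDT against 155600 and 188900 CPM in Vehicle. Of the 6, DESeq2 called 5 lower, and limma called 3 lower at the deposited scaling. Of 6 genes listed as surface mucous cell markers, led by Gkn2 and Gkn1, limma called 5 lower, with a sum of 61720 and 75970 CPM in HDT against 115200 and 111900 CPM in Vehicle. DESeq2 also called 1 higher, and at the deposited scaling limma called 1 lower (Psca) and 1 higher (Gkn3). Gkn3 went against the rest of its list, at 69.45 and 57.7 CPM in HDT against 24.6 and 38.7 CPM in Vehicle, with no call under TMM. Whether Gkn3 marks surface cells in these samples was not tested. Of 8 macrophage markers, led by Lyz2 and C1qa, limma called 6 higher, with a sum of 414 and 342 CPM in HDT against 185.6 and 197.8 CPM in Vehicle. DESeq2 called 5 of the 8 higher. At the deposited scaling limma called all 8 higher, where 62.8% of all tested genes were called higher and 5.46% lower. With TMM, limma called 19.3% of all tested genes lower and 18.4% higher. The part of these cell types in the changes of the 40 genes was not tested.

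Muscle and fat are known sources of Ckm, Slc25a4 and Me1. Of 9 smooth muscle markers, led by Acta2 and Myh11, limma and edgeR called 0 and DESeq2 called 1 lower, and 1 was lower at an unadjusted limma p under 0.05. Their sum was 1891 and 2767 CPM in HDT and 3140 and 2224 CPM in Vehicle, so the groups overlapped. The 11 skeletal muscle markers, led by Mylpf and Tnnt3, summed to 3.13 and 4.66 CPM in HDT and 4.12 and 2.76 CPM in Vehicle. Of the 4 tested, limma, edgeR and DESeq2 each called 0, and 0 had an unadjusted p under 0.05. The 8 adipocyte markers summed to 57.6 and 65.3 CPM in HDT and 93.2 and 77.4 CPM in Vehicle. Of their 7 tested genes, led by Fabp4 and Cidec, limma called 1 lower (Fabp4), which was not called at the deposited scaling (limma adjusted p = 0.482). The part of muscle and fat was not tested.

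The promoters of 35 of the tested members were read from RefSeq (GRCm38.p6) as windows of 250 bases before to 50 bases after an annotated start. Both strands were searched for AAGGTCA, the core element of estrogen-related receptors, which drive mitochondrial genes, for TATAAA (the TATA box) and for CCAAT (the CCAAT box). None of the motifs contains another. AAGGTCA was found for 3 of 35 members (8.57%), against 4.19% of 12110 tested genes with a window, in Got1, Ckmt1 and Ogdh. TATAAA was found for 3 of 35 members, against 9.43% of tested genes. CCAAT was found for 23 of 35 members (65.7%), against 42.1% of tested genes. It was present for 7 of the 8 members that were lower under every scaling (87.5%), against 16 of the 27 other members (59.3%) and 44.5% of all tested genes that were lower under every scaling. A gene counts as holding a motif if any of its windows does, and a match is a description of letters, not of a bound site.

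The windows of the 5 genes that fell at least 2-fold and of Idh1, the counterpart that rose, are printed 5′ to 3′ in the direction of the gene, with CCAAT (or ATTGG, its reverse complement) and TATAAA in capitals. For Mpc1 and Idh1, which have 2 windows each, the one nearer to the gene's 5′ end is shown.
Ckb (chr12:111672289-111672588, minus strand): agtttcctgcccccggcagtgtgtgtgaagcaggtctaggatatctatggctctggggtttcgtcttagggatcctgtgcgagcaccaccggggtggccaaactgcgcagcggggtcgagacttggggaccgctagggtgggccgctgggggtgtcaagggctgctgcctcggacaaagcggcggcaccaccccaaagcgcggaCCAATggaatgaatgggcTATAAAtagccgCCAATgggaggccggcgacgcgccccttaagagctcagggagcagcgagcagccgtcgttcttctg
Slc25a4 (chr8:46211013-46211312, minus strand): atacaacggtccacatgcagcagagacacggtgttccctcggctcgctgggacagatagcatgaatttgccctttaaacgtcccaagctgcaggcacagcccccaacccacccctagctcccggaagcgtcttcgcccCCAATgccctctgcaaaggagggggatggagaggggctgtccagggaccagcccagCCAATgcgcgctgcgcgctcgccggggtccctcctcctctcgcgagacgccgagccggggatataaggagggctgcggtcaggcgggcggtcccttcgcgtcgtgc
Mpc1 (chr17:8283537-8283836, plus strand): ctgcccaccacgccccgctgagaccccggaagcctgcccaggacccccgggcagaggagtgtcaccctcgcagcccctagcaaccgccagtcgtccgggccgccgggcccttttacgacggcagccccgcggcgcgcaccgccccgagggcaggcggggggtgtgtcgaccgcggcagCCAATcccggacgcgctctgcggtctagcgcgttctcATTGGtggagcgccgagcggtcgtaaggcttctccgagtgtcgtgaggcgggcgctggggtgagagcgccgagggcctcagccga
Mpc2 (chr1:165461010-165461309, plus strand): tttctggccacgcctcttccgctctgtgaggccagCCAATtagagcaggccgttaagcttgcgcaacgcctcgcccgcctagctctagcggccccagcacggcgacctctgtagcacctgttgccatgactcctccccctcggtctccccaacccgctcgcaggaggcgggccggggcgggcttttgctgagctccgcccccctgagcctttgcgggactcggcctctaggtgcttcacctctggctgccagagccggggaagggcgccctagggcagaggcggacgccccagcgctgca
Idh2 (chr7:80115301-80115600, minus strand): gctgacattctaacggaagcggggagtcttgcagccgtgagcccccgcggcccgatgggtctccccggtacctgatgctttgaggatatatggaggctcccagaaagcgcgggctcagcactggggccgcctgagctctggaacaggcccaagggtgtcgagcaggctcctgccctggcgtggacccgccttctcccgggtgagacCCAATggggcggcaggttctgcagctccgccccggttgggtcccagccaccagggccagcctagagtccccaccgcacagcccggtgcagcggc
Idh1 (chr1:65186430-65186729, minus strand): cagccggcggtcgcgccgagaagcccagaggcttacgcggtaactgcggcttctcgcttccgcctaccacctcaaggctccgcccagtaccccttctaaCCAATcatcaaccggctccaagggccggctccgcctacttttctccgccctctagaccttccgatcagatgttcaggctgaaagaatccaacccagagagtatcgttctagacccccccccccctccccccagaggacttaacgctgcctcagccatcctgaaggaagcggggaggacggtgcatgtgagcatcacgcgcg
Ckb holds TATAAA with its first base 28 bases before the start, flanked by CCAAT at 46 and 16 bases before it. Slc25a4 holds CCAAT at 112 and 56 bases before the start, Idh2 at 44, Mpc2 at 215 and Idh1 at 151. Among the windows printed, the element is found in Idh1, which rose, as well as in the genes that fell. Of the other members called higher, Pdk3 holds it and Aco1 does not. In Mpc1 CCAAT lies at 72 bases before the start and ATTGG at 35.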

How the data were processed

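The tools named in the submitters' processing notes are STAR 2.7.1a, featureCounts (Subread 2.0.0) and edgeR, and the builds are GRCm38 and mm10. The annotation, strand setting and normalization are not given in those notes or labels. The values the authors deposited are a signal: whole reads times a factor constant within a library (1.1192 and 1.1128 in HDT, 1.1381 and 1.12 in Vehicle). Division by that factor turned 100% of the nonzero values into whole reads, within 0.01. Depth was 42175023 and 42674985 reads in HDT and 41536686 and 42104568 in Vehicle.

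Genes were kept by filterByExpr on those reads (18285 genes), scaled by TMM (factors 1.22 and 1.18 in HDT, 0.848 and 0.818 in Vehicle), transformed as log2(value + 1) and compared with limma 3.58.1 (mean-variance trend, robust, two-sided) in R 4.3.3. Count tests on the recovered reads with edgeR 4.0.16 (3358 higher and 3511 lower) and DESeq2 1.42.0 were alternatives, beside other scalings, filters, a pseudocount of 5, each replicate left out and a replicate block. The limma p-values rest on the spread between 2 mice a group, moderated toward a trend over all tested genes (median prior degrees of freedom 5.88). They therefore do not measure the spread of the mice in a single gene alone. The replicates differed by more than sampling noise (chi-square per degree of freedom 30.2 in HDT and 16.2 in Vehicle). Positions and exon lengths come from GENCODE M21 (GRCm38), which holds all 40 members.

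The members and lists were chosen with earlier results of these data known. Values of each mouse are given for members called at 2-fold or more (log2 fold change of at least 1), members called higher and the most changed called member of each role. Other pathway genes were named at the same fold where the group with more reached 5 CPM, and the 2 most abundant markers of each list are named. The values of 1 gene of the second list, which stays in its counts, are not reported here.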

Additional observations from a re-analysis of the deposited data

How the results depend on the processing

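The deposited scaling moved the calls of the members most. The values as deposited gave 13 members higher and 8 lower, 22 other pathway genes higher and 7 lower, and 11483 of all tested genes higher and 998 lower, against 3, 28, 5, 16, 3369 and 3522 with TMM. The member median was 0.059 there and -0.44 with upper-quartile scaling. At the deposited scaling 23 members changed sign. They were Pdha1 (0.35), Pdhb (0.021), Dlat (0.21), Pdhx (0.13), Pdk1 (0.39), Pdk2 (0.012), Pdk4 (0.026), Pdp1 (0.21), Pdp2 (0.41), Pcx (0.13), Cs (0.40), Idh3a (0.057), Idh3b (0.057), Ogdh (0.27), Dlst (0.21), Suclg1 (0.059), Suclg2 (0.058), Fh1 (0.0405), Mdh2 (0.10), Got2 (0.11), Ckmt1 (0.43), Ckm (0.29) and Slc6a8 (0.00014). By construction that scaling moves all genes by a common shift, by 0.53 in the median.

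Leaving out each replicate in turn gave 2 to 3 members higher and 25 to 28 lower, member medians of -0.47 to -0.42, 2 to 5 other pathway genes higher and 12 to 15 lower, and 2538 to 2749 of all tested genes higher and 2773 to 3041 lower. The log2 fold change of Me1 ranged from -0.0097 (without Vehicle replicate 2) to 0.30, and that of Ckm from -0.57 to 0.0905 (without Vehicle replicate 1). The Me1 share of the malic enzymes (HDT minus Vehicle, -0.18 percentage points with all mice) ranged from -1.95 to 1.57 points. A lone library in an arm is assumed to vary like the other group. The cause of these leave-one-out changes was not tested.

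With 2 pairs, the replicate numbers are only numbers. Deviations of same-numbered libraries correlated at -0.14 over genes. The replicate block gave 26 members lower and 3 higher, 13 other pathway genes lower and 3 higher, and 2629 of all tested genes lower and 2368 higher. Crossing the numbers, added after seeing the data, gave 29 members lower and 4 higher. The members with the fewest reads were Ckmt2 (0), Ckm (147 to 270), Pdp2 (406 to 569) and Pdp1 (460 to 597). The SE was 0.257 for Ckm, 0.091 for Pdp2 and 0.11 for Pdp1, against 0.059 for Ckb.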
